A study of Mus musculus with 3 samples.

Results

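The genes described here encode the proteins of the cytosolic ribosome, the particle of a large and a small subunit that translates messenger RNA outside mitochondria. They were chosen by name from the gene table: rows of the biotype protein_coding whose names are Rpl or Rps followed by a number, with a suffix of the letters a, l, x or y and a further digit allowed, together with Rplp0, Rplp1, Rplp2 and Rpsa. Names of pseudogenes and of the Rps6k kinases were left out. The rule took 87 of 39179 genes, 52 of the large and 35 of the small subunit, and it used no measured value. Of the 87, 77 are core subunits (46 large and 31 small) and 10 are paralogues or copies, namely Rpl3l, Rpl7l1, Rpl10l, Rpl22l1, Rpl36al, Rpl39l, Rps27l, Rps4y2, Rps3a2 and Rps3a3.

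RNA was sequenced from mouse embryonic stem cells (ESCs) of the line E14tg2a, in 3 conditions with 1 library each. KO cells carry Cas9-made frameshifts in both alleles of Zmym2 (also called Zfp198), a gene for a zinc finger protein that associates with NANOG. OE cells carry a Zmym2 transgene integrated with the PiggyBac transposon. WT cells are the unmodified line, and all 3 were grown in serum with LIF, which supports their self-renewal. According to the Methods, transgenic cells were selected with hygromycin or blasticidin and knockouts came from sorted single cells, so KO is taken to be 1 clone, and no empty-vector library was analysed here. Cloning, drug selection and culture history differ between the libraries in the same way as Zmym2 does, and cannot be told apart from it. Since each condition had 1 library, no test between conditions was possible, and the intervals given below are 95% intervals that cover counting error only.

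The KO library held 46995766 gene reads and the OE library 41840774, against 50120551 in WT. Groups follow the sample titles, because the descriptions of the line are exchanged between KO and OE. Zmym2 itself had 4370 normalised counts in KO and 57139 in OE, against 7956 in WT, which fits the titles. A normalised count is a read count divided by the size factor of its library. All 8 ESC markers, such as Pou5f1 and Nanog, lay between 11148 and 36973 normalised counts in every library. Residual ribosomal RNA differed between libraries: mt-Rnr2, the mitochondrial large rRNA, had 170620 normalised counts in KO and 84029 in OE, against 340957 in WT.

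Cells make ribosomal proteins in near-equal numbers, since most core subunits have a single place in the ribosome, and their messenger RNAs are among the most abundant of a growing cell. Many of these messages begin with a run of pyrimidines, the 5′ terminal oligopyrimidine (TOP) motif, through which the kinase mTOR controls their translation. A mature ribosome also needs ribosomal RNA made by RNA polymerase I and a large set of assembly factors. Some subunits have paralogues that are used in particular tissues, as Rpl3l in striated muscle and Rpl10l and Rpl39l in male germ cells.

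The start sites are shown here because the pyrimidine run is the feature these genes are best known to share. RefSeq start sites on GRCm38.p6 were matched by name to 63 of the 87 genes. The 60 bases from 30 before to 30 after the start are given on the coding strand, with each CTTTC, a core of the pyrimidine run, in capitals. Rpl4 (chr9:64173357-64173416, plus strand) and Rps26 (chr10:128626477-128626536, minus strand) were among the 6 genes with the highest levels per length in WT. Rps27 (chr3:90213619-90213678, minus strand) is shown beside its paralogue Rps27l (chr9:66946056-66946115, plus strand), and Rpl10l (chr12:66284372-66284431, minus strand) had the lowest OE ratio of the members that passed the level minimum.
Rpl4: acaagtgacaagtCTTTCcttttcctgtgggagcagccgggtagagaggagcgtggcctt
Rps26: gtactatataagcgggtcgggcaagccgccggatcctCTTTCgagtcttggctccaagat
Rps27: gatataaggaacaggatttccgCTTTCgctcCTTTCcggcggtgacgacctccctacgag
Rps27l: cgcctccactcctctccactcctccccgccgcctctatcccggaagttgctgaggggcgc
Rpl10l: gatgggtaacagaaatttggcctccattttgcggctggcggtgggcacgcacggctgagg

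CTTTC on the coding strand stood in 20 of these 63 windows (31.7%) and in 7.78% of 27025 windows of all promoters. The same letters on the other strand (GAAAG) were in 9.52% of the members' windows and in 7.19% of all. A run of at least 8 bases of C or T was found in 50.8% of the members and in 22.8% of all promoters, and a run of at least 8 bases of A or G in 11.1% and 25.2%. In the whole 300 bases (250 before to 50 after the start), CGGAAG, the core that ETS-family factors recognise, was in 36.5% of members and 9.74% of all on the coding strand, and its reverse complement CTTCCG was in 39.7% of members and 9.52% of all. RefSeq starts can be some bases away from the start used in ESCs, so a missing match says only that these letters are not in this window. The 20 genes with CTTTC and the 43 without it (Rpl3l included) had median log2 ratios to WT of 0.10 and 0.12 in KO, and of −0.09 and −0.09 in OE.

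The paralogue pair Rpl39l and Rpl39 shows how alike these genes are and where reads can be told apart. Their coding sequences in GENCODE M21 (GRCm38) are 156 bases each and differ at 23 positions, given in capitals. Rpl39l lies on chromosome 16 (10170226 to 10174911, plus strand), and Rpl39 on the X chromosome (37082520 to 37085402, minus strand).
Rpl39l: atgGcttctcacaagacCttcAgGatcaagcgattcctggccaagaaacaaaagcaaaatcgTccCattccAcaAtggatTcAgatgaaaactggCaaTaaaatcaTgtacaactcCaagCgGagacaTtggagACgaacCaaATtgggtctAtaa
Rpl39: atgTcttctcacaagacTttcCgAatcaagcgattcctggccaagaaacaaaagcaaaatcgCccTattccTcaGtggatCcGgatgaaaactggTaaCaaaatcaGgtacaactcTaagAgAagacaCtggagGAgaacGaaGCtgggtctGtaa

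Copies limit what single values mean. The table held 222 entries named as pseudogenes (-ps) of ribosomal protein genes, 54 of the 87 genes had at least 1 such entry, and Rpl31 had most, with 22. These entries took 0.581% of the reads of members and copies together in KO and 0.623% in OE, against 0.630% in WT. For single genes the part was larger. In WT, Rps13-ps1, Rpl34-ps1 and Rps16-ps2 had 2099.5, 1245 and 1173.5 normalised counts, beside 3687 for Rps13, 3991 for Rpl34 and 5509 for Rps16. Reads that fit several copies may have been split or dropped in counting. Rps3a3 and Rps3a2, which M21 lists as processed pseudogenes on chromosomes 13 and 14, had 6209 and 243 normalised counts in KO and 5802 and 219 in OE, against 6049 and 196 in WT, beside 6174 in KO, 5583 in OE and 5678 in WT for Rps3a1. Rps4y2 is named Rps4l in M21, a transcribed processed pseudogene on chromosome 6.

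The row named Rpl24 needs a caution of its own. Its identifier, ENSMUSG00000022601, belongs in M21 to the neighbouring gene Zbtb11, which encodes a zinc finger protein (chr16:55973883-56008913 on GRCm38). The row named RPL24 in capitals carries the identifier of Rpl24 in M21, ENSMUSG00000098274 (chr16:55966275-55971435), and the rule missed it. It had 816 normalised counts in KO and 724 in OE, against 737 in WT. The row named Rpl24 stays among the members as the rule took it, with 2400 in KO and 1795 in OE, against 2329 in WT, but its values may be those of Zbtb11.

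Ribosomal protein genes took a small and similar share of the reads in all libraries. The 87 genes held 3.00% (2.99 to 3.00) of the reads of protein-coding genes in KO and 2.69% (2.68 to 2.69) in OE, against 2.785% (2.780 to 2.790) in WT. This share does not depend on the scaling between libraries. The large subunit held 58.4% of the members' reads in KO and 58.3% in OE, against 58.6% in WT, so the balance between the subunits moved by less than 1 percentage point.

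Levels differed far more between genes than between libraries. Per kilobase of annotated exon, the 77 core genes had a median of 6320 normalised counts in KO and 5715 in OE, against 5812 in WT, and a range in WT of 313 to 68336. The 313 is that of the row named Rpl24, whose values may be those of Zbtb11. The next lowest core gene was Rpl35a at 914. The highest level in WT was that of Rplp1, an acidic protein of the stalk that recruits translation factors, with 83056 in KO, 64466 in OE and 68336 in WT per kilobase. Rpl4 followed with 52020 in KO, 48556 in OE and 48556 in WT, then Rpl8 with 38772 in KO, 32891 in OE and 34478 in WT. Rps2 and Rps15, both of the small subunit, had 37048 and 32841 in KO and 34709 and 25905 in OE, against 31304 and 29306 in WT. The 5 core genes with the highest level were the same in all 3 libraries, and their order was too, except that Rps2 was above Rpl8 in OE.

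At the other end, the lowest levels per kilobase in WT, with the paralogues left out but the Rps3a copies kept, were those of Rps3a2 (247), the row named Rpl24 (313), Rpl35a (914), Rps19 (1168) and Rps13 (1370). Rps19, the gene most often mutated in Diamond-Blackfan anaemia, had 1343 per kilobase in KO and 1151 in OE. Annotated exon length includes rarely used exons: per kilobase of coding sequence, where Rpl41 ranks first with a coding length of 75 bases, Rps19 had 12583 in WT. The order of levels is therefore a description of these counts on this annotation. Counts at named copies are not part of these levels. For Rps13 they were large, with 2099.5 normalised counts at Rps13-ps1 in WT beside 3687 at Rps13, so its low place is uncertain. Reads dropped because they fit several copies were not measured. Rpl3l, the muscle paralogue, had 22.2 normalised counts in KO and 8.80 in OE, against 25.5 in WT, and was the only member below a mean of 50. The next member above that minimum was Rps3a2, with a mean of 219.

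**Figure D1:**
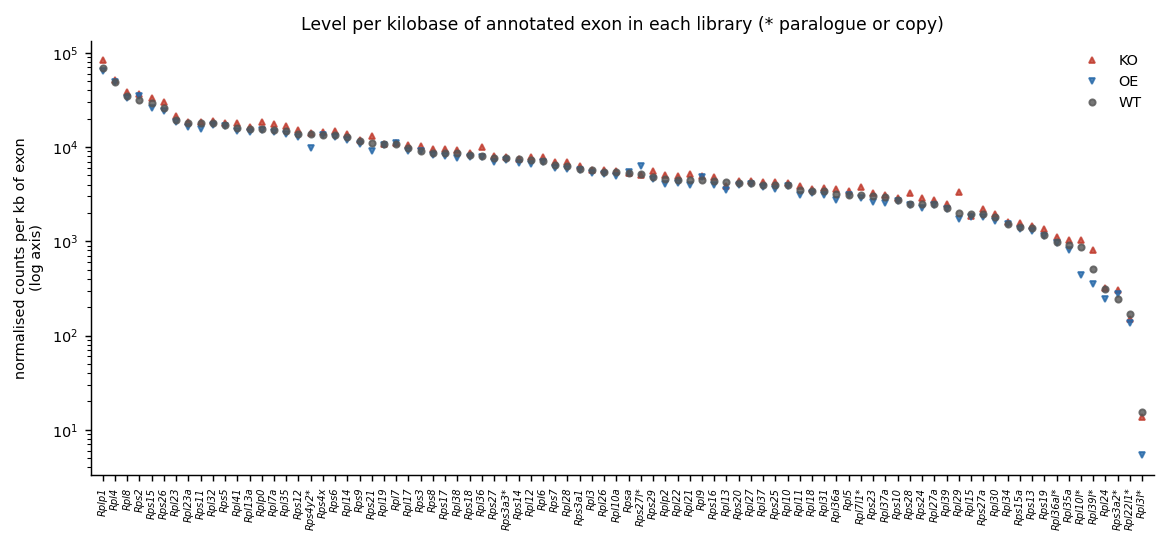
Level of each of 86 of the 87 ribosomal protein genes in normalised counts per kilobase of annotated exon (log axis), ordered by the WT level, with a symbol for each of the KO, OE and WT libraries. The symbols of a gene mostly overlap, from Rplp1 at 68336 in WT at the left down to Rpl3l, while Rpl3l, Rpl10l, Rpl39l and Rpl29 show the widest gaps between libraries.

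Between KO and WT, ribosomal protein genes stood slightly higher in KO, together and by a small amount. Of the 86 members averaging 50 or more normalised counts over the libraries, 80 were above WT in KO (93.0%) and 6 below, beside 44.7% and 55.3% of the 12896 genes at that level. Their median log2 ratio was 0.12 (1.08-fold), with quartiles of 0.07 and 0.17, where all genes had a median of −0.03 and quartiles of −0.22 and 0.13. The median stayed above 0 under each of the 6 other scalings tried, at 0.05 to 0.13, and the split was narrowest, 65 above and 21 below, under scaling to short coding genes. The interval of the ratio lay above 1 for 73 members, below 1 for 3, and held 1 for 10. In bulk RNA, a change in how many cells express a gene and a change in RNA per cell cannot be told apart.

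Few members moved by much. At least 25% above WT in KO were 3 members, beside 10.7% of all genes, and at least 20% below WT (the same fold downwards) were 0, beside 17.7%. At 2-fold the counts were 0 higher and 0 lower, beside 2.43% and 3.09% of all genes. The shares of all genes include many genes of lower level, which vary more. Of 1183 other protein-coding genes averaging 5000 to 10000 normalised counts, 40 were at least 25% above and 88 at least 20% below WT in KO. Of 591 at 10000 to 20000 these counts were 13 and 34, and of 292 above 20000 they were 10 and 9. No member in these classes was past either size in KO. In KO, 78 of the 86 members (90.7%) lay within 0.2 log2 units of the members' median, while 55.9% of all genes lay that close to their own median, as did 69.8% of 6649 other protein-coding genes averaging 1000 or more. Of those 6649 genes, 4583 averaged 1000 to 5000, a class that held 16 members.

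The 3 genes at least 25% above WT in KO were Rpl29, Rpl39l and Rps28. Rpl29, a large subunit protein, had 3801 normalised counts in KO and 1923 in OE, against 2274 in WT. KO was high and OE low around WT: KO stood at 1.67 times WT (1.59 to 1.76), and OE at 0.845 times WT (0.794 to 0.899). Rpl39l, the paralogue used in male germ cells, had 675 in KO and 295 in OE, against 423 in WT, with ratios of 1.59 (1.41 to 1.80) and 0.697 (0.597 to 0.812). Rps28, which lies in the head of the small subunit near the path of the messenger RNA, had 5541 in KO and 4190 in OE, against 4292 in WT. Its ratio was 1.29 (1.24 to 1.34) in KO, and in OE 0.976 (0.935 to 1.02), an interval that holds 1.

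Just under that fold in KO were Rpl36 with a ratio of 1.249 (1.19 to 1.31), Rps3a2 with 1.24 (1.03 to 1.51), Rpl7l1 with 1.23 (1.20 to 1.26), Rplp1 with 1.22 (1.20 to 1.23) and Rps21 with 1.19 (1.16 to 1.23). Rpl36 had 3866 normalised counts in KO and 2982 in OE, against 3094 in WT. Rplp1 had 41445 in KO and 32169 in OE, against 34100 in WT. For both, KO was the high library, and the OE ratios were 0.964 (0.916 to 1.01) for Rpl36 and 0.943 (0.929 to 0.958) for Rplp1.

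**Figure D2:**
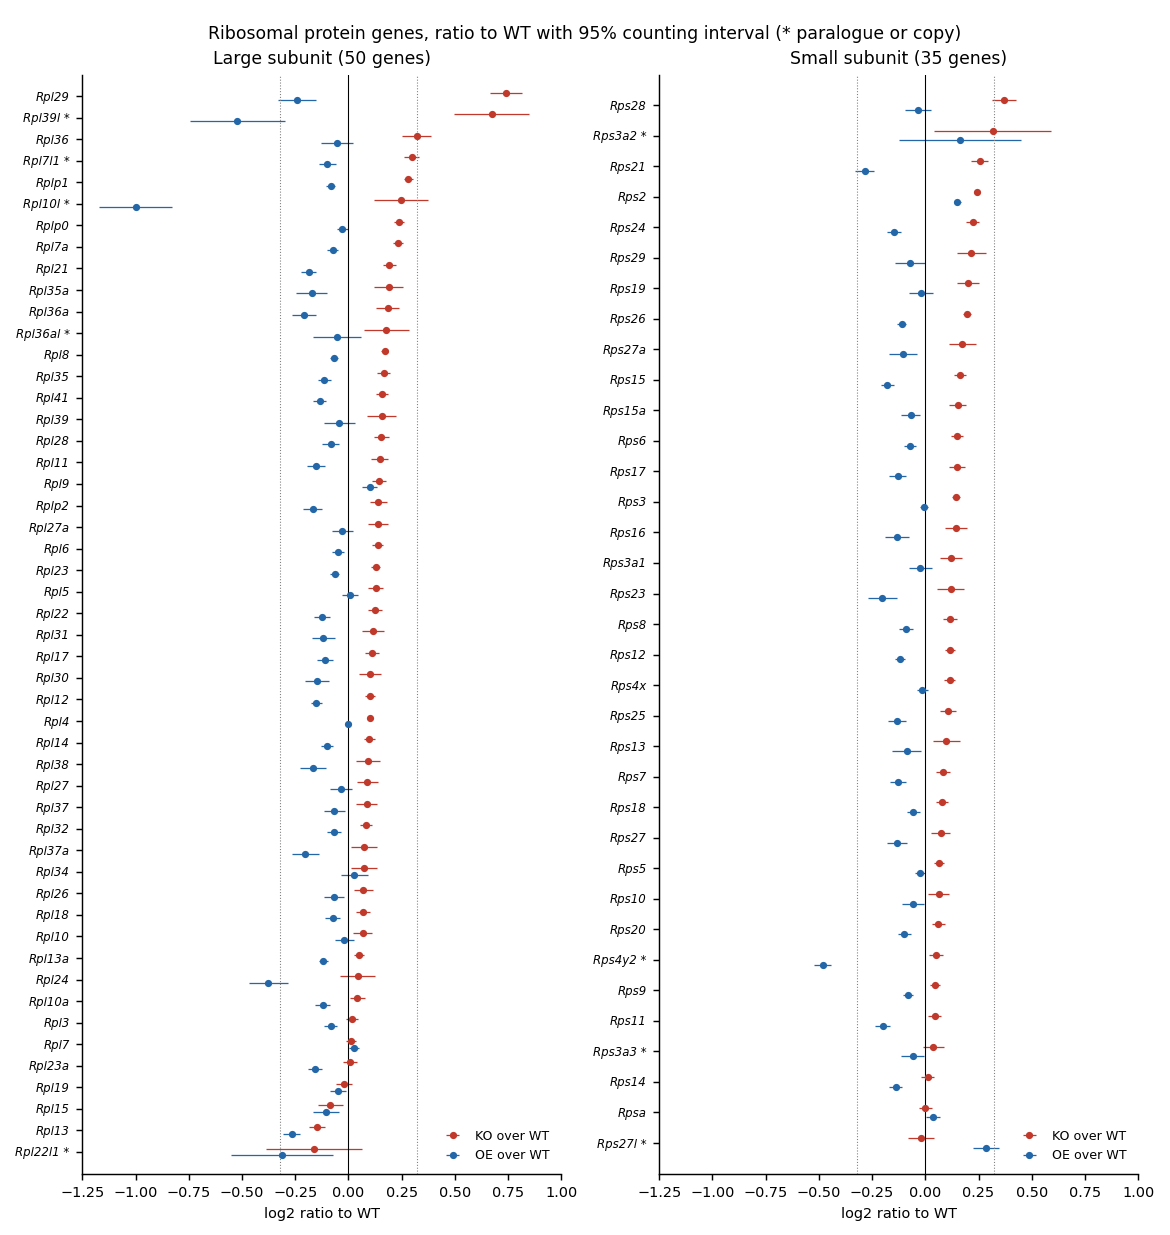
Log2 ratio to WT of each of 85 of the 86 ribosomal protein genes averaging 50 or more normalised counts, KO over WT in red and OE over WT in blue, by subunit and ordered by the KO ratio. Bars are 95% counting intervals and dotted lines mark 25% above and 20% below WT; most genes lie close to the median of 0.12 in KO and of −0.09 in OE at the deposited scaling, where the OE side of 0 depends on the scaling, and Rpl29, Rpl39l, Rpl10l and Rps4y2 stand apart.

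The members that were below WT in KO were few. Rpl13 had 9921 normalised counts in KO and 9131 in OE, against 10988 in WT, with ratios of 0.903 (0.879 to 0.928) and 0.831 (0.808 to 0.855). Rpl13 is a large subunit gene on chromosome 8. The 658 other protein-coding genes of chromosome 8 at that level had median log2 ratios of −0.25 in KO and −0.18 in OE. Whether the chromosome has a part in these values was not tested. Without the members of that chromosome the members' medians were 0.12 in KO and −0.09 in OE.

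Rpl15, on chromosome 14, was the third with an interval below 1 in KO, at 0.942 (0.905 to 0.981), with 4587 normalised counts in KO and 4525 in OE, against 4868 in WT. The intervals of Rpl22l1 (0.894, 0.763 to 1.05), Rpl19 (0.985, 0.960 to 1.01) and Rps27l (0.987, 0.946 to 1.03) held 1. Rpsa, the small subunit protein also known as the laminin receptor, did not differ between KO and WT beyond counting error, with 16825 normalised counts in KO, 17249 in OE and 16822 in WT. Rpl23a was likewise level in KO, with a ratio of 1.01 (0.983 to 1.03).

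Between OE and WT, the members stood slightly lower in OE at the deposited scaling, but a similar lowering was seen in other highly expressed genes. Of the 86 members, 78 were below WT in OE (90.7%) and 8 above, beside 52.2% and 47.8% of all genes. The 78 include Rpl4, whose value of 97451 normalised counts was the same in OE and WT. The median log2 ratio was −0.09 (0.936-fold), with quartiles of −0.15 and −0.05, and all genes had a median of −0.02 and quartiles of −0.23 and 0.29. The split depended on the scaling. It was 82 below and 4 above with housekeeping genes (median −0.19), 78 and 8 with TMM factors, and 67 and 19 scaled to total reads or to reads of other genes (median −0.05 and −0.06). Scaled to other protein-coding genes with transcripts of up to 1000 nucleotides it was 43 below and 43 above, with no direction (median −0.0027). Scaled to those averaging 10000 or more normalised counts it turned round, with 38 below and 48 above (median 0.01). The interval of the ratio lay below 1 for 65 members, above 1 for 5, and held 1 for 16.

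The small size of the difference again applied to nearly all members. At least 20% below WT in OE were 4 members, beside 18% of all genes, and at least 25% above WT were 0, beside 23.7%. At 2-fold the counts were 0 lower and 0 higher, beside 3.12% and 9.74% of all genes. Of 1183 other protein-coding genes averaging 5000 to 10000 normalised counts, 175 were at least 20% below and 131 at least 25% above WT in OE. Of 591 at 10000 to 20000 these counts were 100 and 47, and of 292 above 20000 they were 40 and 15. Of the members in these classes only Rps4y2 was past either size in OE. In OE, 78 of the 86 members (90.7%) lay within 0.2 log2 units of their median, against 42.6% of all genes and 54.0% of the 6649 other protein-coding genes averaging 1000 or more.

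Of the 4 genes at least 20% below WT in OE, 3 are paralogues or copies and the fourth is the row named Rpl24. Rpl10l had 1065 normalised counts in KO and 449 in OE, against 898 in WT. Its OE ratio was 0.5002 (0.444 to 0.562), at the edge of 2-fold, and its KO ratio 1.19 (1.09 to 1.30). Rps4y2 had 13409 in KO and 9265 in OE, against 12946 in WT, with an OE ratio of 0.716 (0.696 to 0.735) and a KO ratio of 1.04 (1.01 to 1.06). The row named Rpl24 had an OE ratio of 0.771 (0.723 to 0.821), whereas the row RPL24 had 0.983 (0.884 to 1.09). With the 77 core genes alone, the row named Rpl24 was the only member that far below WT in OE.

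Further low in OE were Rpl22l1 at 0.806 (0.682 to 0.951), Rps21 at 0.821 (0.795 to 0.847), Rpl13 and Rpl29. Rps21, of the small subunit, had 10701 normalised counts in KO and 7360 in OE, against 8970 in WT, so that WT lay between the other libraries. The members above WT in OE were led by Rps27l, a paralogue of Rps27 that is known as a p53 target, with 4159 in KO and 5135 in OE, against 4213 in WT, a ratio of 1.22 (1.17 to 1.27) in OE. Rps2 had 67798 in KO and 63517 in OE, against 57286 in WT, with ratios of 1.18 (1.17 to 1.20) and 1.11 (1.10 to 1.12), so WT was the lowest library. The copy Rps3a2 stood at 1.12 (0.917 to 1.37) in OE and Rpl9 at 1.07 (1.05 to 1.10), and Rpsa (1.03), Rpl7 (1.02), Rpl34 (1.02) and Rpl5 (1.004) were close to WT.

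OE was also set directly against KO, since these libraries stand on either side of WT in Zmym2 level. Of the 86 members, 83 were lower in OE than in KO and 3 higher, beside 49.8% and 50.2% of all genes, and the median log2 ratio of OE over KO was −0.22, against 0.00 for all genes. These ratios share their libraries with the comparisons above and are not a further result.

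Transcript length moved with both comparisons. Among other protein-coding genes, the 265 with transcripts of up to 750 nucleotides had median log2 ratios of 0.09 in KO and −0.10 in OE, and the 1433 with transcripts over 6000 nucleotides had −0.08 in KO and 0.05 in OE. Ribosomal protein messages are short: 61 of the 83 members with a coding transcript in M21 had at most 1000 nucleotides. The 37 members of up to 750 nucleotides had medians of 0.11 in KO and −0.12 in OE, close to those of other genes of that length. The 24 members of 750 to 1000 nucleotides had 0.12 and −0.08, against 0.05 and −0.07 for 375 other genes, and the 13 members of 1000 to 1500 nucleotides had 0.13 and −0.08, against 0.01 and −0.05 for 1174 other genes. At the deposited scaling, of members up to 1000 nucleotides, 91.8% were above WT in KO and 93.4% below WT in OE, against 62.7% and 62% of the 640 other genes. The part of transcript length in the members' ratios was not tested.

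**Figure D3:**
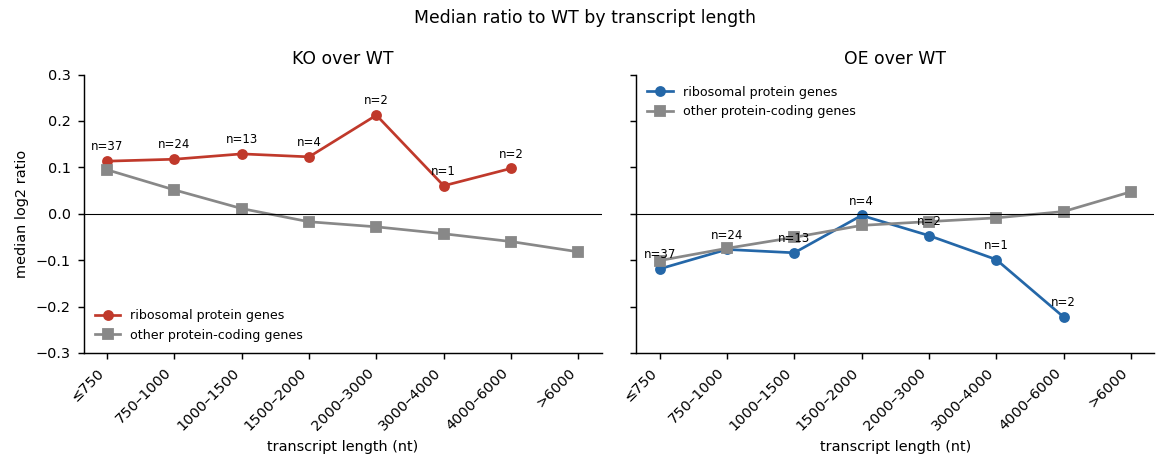
Median log2 ratio to WT by transcript length in nucleotides, KO over WT at the left and OE over WT at the right, for ribosomal protein genes (circles, with their number) and other protein-coding genes (squares). Other genes go from 0.09 to −0.08 in KO and from −0.10 to 0.05 in OE with rising length, and members lie above them in KO and close to them in OE in the classes with at least 13 members.

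Abundance moved with the OE comparison in a like way. Other protein-coding genes with a mean of 10000 to 20000 normalised counts (591 genes) had median log2 ratios of −0.00 in KO and −0.11 in OE, and those above 20000 (292 genes) had 0.04 in KO and −0.10 in OE. Members with 10000 to 20000 normalised counts (28 genes) had 0.10 in KO and −0.12 in OE, and those above 20000 (20 genes) had 0.12 in KO and −0.07 in OE. In the class of 5000 to 10000, 18 members had 0.12 in KO and −0.07 in OE, against −0.01 and −0.08 for 1183 other genes. In that of 1000 to 5000, 16 members had 0.14 in KO and −0.10 in OE, against −0.03 and −0.03 for 4583 other genes, and in that of 50 to 1000, 4 members had 0.28 and −0.41, against −0.06 and 0.08 for 5633 other genes. The members' median was thus above that of other genes in KO in all 5 classes, while in OE it lay close to theirs from 5000 normalised counts upwards and below it in the 2 lower classes. No test of these differences is possible with 1 library a group.

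**Figure D4:**
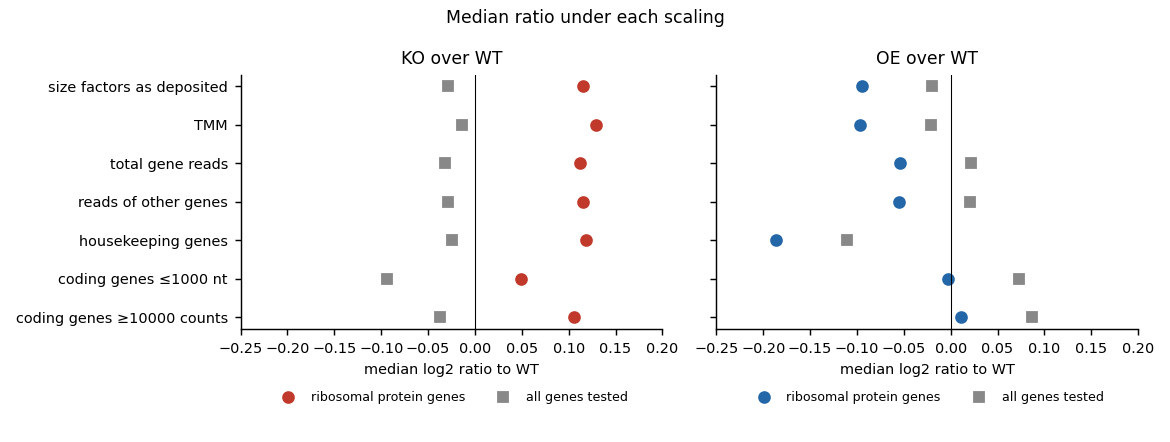
Median log2 ratio to WT under 7 scalings, for the 86 ribosomal protein genes (circles) and all genes tested (squares), KO over WT at the left and OE over WT at the right. The members' median stays above 0 in KO (0.05 to 0.13), and in OE it lies between −0.19 and 0.01, on the other side of 0 under scaling to coding genes of at least 10000 normalised counts.

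Large and small subunit genes had similar medians. The 51 large subunit genes that passed the minimum had a median log2 ratio of 0.11 in KO and −0.10 in OE, and the 35 small subunit genes had 0.12 and −0.09. In KO, 2 large and 1 small subunit gene were at least 25% higher, and in OE 3 large and 1 small subunit gene were at least 20% lower. Summed over its genes, the large subunit stood at 1.09 (1.08 to 1.09) in KO and 0.947 (0.944 to 0.950) in OE, and the small subunit at 1.09 (1.09 to 1.10) and 0.957 (0.953 to 0.960), relative to WT.

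By place in the ribosome, the stalk had the highest median in KO. Rplp0, the scaffold of the stalk, had 30311 normalised counts in KO and 25235 in OE, against 25749 in WT, with ratios of 1.18 (1.16 to 1.20) and 0.980 (0.963 to 0.997). Rplp2 had 10497 in KO and 8481 in OE, against 9530 in WT, and Rpl12, at the base of the stalk, had 28204 in KO and 23673 in OE, against 26279 in WT. With Rplp1 these 4 genes had a median log2 ratio of 0.19 in KO and −0.12 in OE, and each was above WT in KO and, at the deposited scaling, below WT in OE, where Rplp0 and Rplp1 turn to above WT under scaling to short or to abundant coding genes and Rplp0 also under scaling to total reads. The 14 genes of the small subunit head had 0.14 and −0.09, the 8 around the exit of the nascent protein 0.11 and −0.11, and the 7 at the messenger RNA exit 0.12 and −0.09. These group medians lie within the range of the single members, and whether groups differ was not tested.

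Rpl5 and Rpl11 form a particle with the 5S rRNA that can bind MDM2 and so stabilise p53. Rpl5 had 13327 normalised counts in KO and 12250 in OE, against 12197 in WT, and Rpl11 had 10376 in KO and 8426 in OE, against 9372 in WT. In KO both were about 1.1-fold higher (1.09 and 1.11), while in OE Rpl5 was level at 1.004 (0.979 to 1.03) and Rpl11 was at 0.899 (0.872 to 0.926). Rps6, the target of the S6 kinases, had 23401 in KO and 20098 in OE, against 21099 in WT, with ratios of 1.11 (1.09 to 1.13) and 0.953 (0.934 to 0.971). Rps19 had 6294 in KO and 5393 in OE, against 5474 in WT, with ratios of 1.1498 (1.11 to 1.19) and 0.985 (0.948 to 1.02).

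Paralogues varied more than core subunits. The SD of the log2 ratios in OE was 0.39 over the 9 paralogues and copies that passed the minimum and 0.08 over the 77 core genes. In KO these SDs were 0.24 and 0.11. All 4 members averaging 50 to 1000 normalised counts (Rpl10l, Rpl39l, Rpl22l1 and Rps3a2) are paralogues or copies. Other protein-coding genes at that level had an OE SD of 1.02, against 0.37 for those at 10000 to 20000. The part of level in the spread of the paralogues was not tested. The share of a paralogue in the reads of its pair is given next, a value that does not depend on the scaling. Rpl39l made up 15.8% (14.7 to 16.9) of the reads of Rpl39l and Rpl39 in KO and 8.60% (7.64 to 9.64) in OE, against 11.6% (10.6 to 12.6) in WT. None of these intervals overlap. The pseudogene entry Rpl39-ps, with 495 normalised counts in KO and 472 in OE, against 517 in WT, is not part of this share. Rpl10l made up 11.2% (10.6 to 11.8) of its pair with Rpl10 in KO and 5.34% (4.84 to 5.87) in OE, against 10.01% (9.41 to 10.6) in WT, where the KO and WT intervals overlap slightly and OE lies apart.

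Both of these paralogues stand for X-linked partners that fall silent in male meiosis in mouse. The partners moved less: Rpl39 had 3600 normalised counts in KO and 3135 in OE, against 3231 in WT, and Rpl10 had 8453 in KO and 7962 in OE, against 8072 in WT. Rps4x had 23779 in KO and 21769 in OE, against 21975 in WT, and its copy Rps4y2 made up 36.1% (35.6 to 36.6) of their reads in KO and 29.9% (29.3 to 30.4) in OE, against 37.1% (36.6 to 37.6) in WT. Rpl36a, the fourth X-linked member, had 5998 in KO and 4570 in OE, against 5282 in WT. Its autosomal paralogue Rpl36al had 1512 in KO and 1289 in OE, against 1337 in WT, and its share of 20.1% in KO and 22.0% in OE, against 20.2% in WT, has overlapping intervals in all 3 libraries.

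Rps27l made up 33.1% (32.2 to 33.9) of its pair with Rps27 in KO and 41.3% (40.4 to 42.2) in OE, against 34.5% (33.7 to 35.3) in WT. Rps27 had 8421 normalised counts in KO and 7306 in OE, against 8009 in WT, so the pair moved in opposite directions in OE. Rpl7l1, a paralogue of Rpl7, had 13162 in KO and 9993 in OE, against 10714 in WT, and 30.9% (30.5 to 31.4) of its pair in KO and 25.2% (24.7 to 25.6) in OE, against 26.9% (26.4 to 27.3) in WT. Rpl7 itself had 29423 in KO and 29707 in OE, against 29155 in WT. Rpl22l1, which is repressed by Rpl22 in mouse, had 299 in KO and 270 in OE, against 334 in WT, beside 14282 in KO, 12021 in OE and 13110 in WT for Rpl22, and the intervals of its share overlapped in all 3 libraries. Rpl3l took 0.122% of its pair in KO and 0.0517% in OE, against 0.141% in WT, from 22, 8 and 27 reads, and these intervals overlap too. Rpl3 had 18255 in KO and 17015 in OE, against 18039 in WT.

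**Figure D5:**
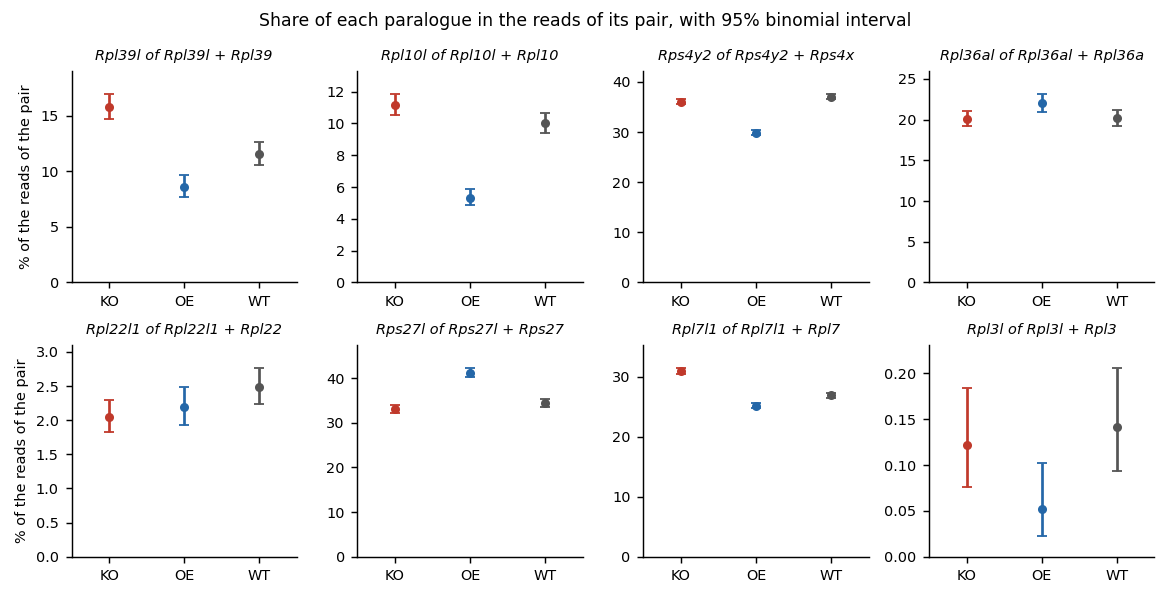
Share of 8 paralogues in the reads of their pair in percent, in the KO, OE and WT libraries, with 95% binomial (Clopper-Pearson) intervals. Rpl39l (15.8%, 8.60% and 11.6%) and Rpl10l (11.2%, 5.34% and 10.01%) are lowest in OE, Rps27l (33.1%, 41.3% and 34.5%) is highest in OE, and the intervals of Rpl36al, Rpl22l1 and Rpl3l overlap.

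How far reads of a pair can be told apart depends on their likeness. Coding sequences of the pairs were identical at 85.3% of aligned positions for Rpl39l and Rpl39, 84.8% for Rpl10l and Rpl10, 87.9% for Rpl36al and Rpl36a, 72.7% for Rpl22l1 and Rpl22, 76.1% for Rps27l and Rps27, 64.9% for Rpl7l1 and Rpl7, and 74.9% for Rpl3l and Rpl3. The longest identical stretch among these pairs was 38 bases, in Rpl39l and Rpl39. Rps4y2 and the Rps3a copies have no coding transcript in M21 and were not aligned, so their split is the least certain.

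Markers of other cell types moved with the OE library. Of 10 fibroblast genes 7 passed the minimum, and all 7 were at least 25% higher in OE, with a summed level of 721 normalised counts in KO and 6252 in OE, against 1442 in WT, while Fap was at 0 in each library. Of 8 neuron and glia genes 6 passed, 5 of them at least 25% higher and 1 at least 20% lower in OE, with sums of 4906 in KO and 15190 in OE, against 7108 in WT. The minimum is on the mean of the 3 libraries, so a gene can pass through OE alone. Col3a1 (0 in KO and 992 in OE, against 77.5 in WT), Dcn (22.2 and 133, against 5.67) and Syt1 (14.1 and 330, against 47.2) did so. Their place among the genes higher in OE therefore carries no weight, though the counts and sums given here include them. In KO their levels were below the minimum, so their place in the KO counts that follow carries little weight too. Of 8 ESC markers 5 were at least 20% lower in OE, with sums of 171236 in KO and 141996 in OE, against 188833 in WT. Of 6 primitive endoderm genes that passed, 5 were at least 25% higher in OE, with sums of 8187 in KO and 19706 in OE, against 9753 in WT. In KO, 4 fibroblast genes were at least 20% lower and 2 at least 25% higher (Dcn and Thy1), 5 neuron and glia genes were lower and 0 higher, 2 primitive endoderm genes were lower and 2 higher, and 1 ESC marker was lower and 0 higher. Of all genes, 17.7% were that far lower and 10.7% that far higher in KO, and 18% and 23.7% in OE. The part of these differences in the ribosomal protein values was not tested.

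Rack1 and Fau are ribosomal proteins that go by other names. Rack1 was close to WT in both libraries. Fau was close to WT in KO and stood at 0.924 times WT (0.881 to 0.969) in OE, at the deposited scaling. Rack1 (named Gnb2l1 in the table), a scaffold on the small subunit, had 61993 normalised counts in KO and 59152 in OE, against 60099 in WT, and Fau, whose product is cleaved to release a small subunit protein, had 3828 in KO and 3445 in OE, against 3729 in WT.

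Other gene lists of protein synthesis had medians that differed little from WT. In OE, at the deposited scaling, 2 of these lists had medians below the −0.09 of the members. These were mitochondrial ribosomal protein genes (−0.12) and RNA polymerase I genes (−0.14). The 74 mitochondrial ribosomal protein genes that passed the minimum had median log2 ratios of 0.06 in KO and −0.12 in OE, with 2 at least 25% higher (Mrps10 and Mrps24) and 2 lower (Mrpl16 and Mrpl52) in KO, and 0 higher and 9 lower in OE. For these and the lists that follow, 10.7% of all genes were that far higher and 17.7% that far lower in KO, and 23.7% and 18% in OE. Mrpl14 had 470 normalised counts in KO and 309 in OE, against 517 in WT, Mrps36 had 180 in KO and 110 in OE, against 168 in WT, and Mrpl40 had 4030 in KO and 2782 in OE, against 3849 in WT. Mrpl52 had 554 in KO and 871 in OE, against 919 in WT, so that KO was the low library. The 45 ribosome assembly factors had medians of 0.03 in KO and −0.07 in OE. None of these was past either size in KO, and 3 were lower in OE: Nolc1, a nucleolar chaperone, with 25568 in KO and 20628 in OE, against 26384 in WT, Nip7 with 4357 in KO and 4157 in OE, against 5279 in WT, and Rrp9 with 5460 in KO and 3895 in OE, against 4878 in WT. Nip7 lies on chromosome 8, where protein-coding genes other than the members had medians of −0.25 in KO and −0.18 in OE. Whether the chromosome has a part in its values was not tested. Sbds, mutated in Shwachman-Diamond syndrome, had 2564 in KO and 3340 in OE, against 2687 in WT.

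The 19 genes of RNA polymerase I and its factors had medians of 0.01 in KO and −0.14 in OE, with 1 at least 25% higher in KO and 3 lower in OE. These were Polr2l, with 234 normalised counts in KO and 130 in OE, against 143 in WT, and in OE Polr2e (5734, against 7998 in WT), Ubtf (11885, against 15932 in WT) and Twistnb (2191, against 2813 in WT). Ubtf is the factor that holds rRNA gene chromatin open, and the first 2 genes encode subunits shared by RNA polymerases. The 44 translation factors had medians of 0.08 in KO and −0.06 in OE, with 4 at least 25% higher (Eif2s2, Eif2b5, Eif2s3y and Pabpc1) and 2 lower (Eif4g3 and Tpt1) in KO, and 1 higher (Eif4g3) and 1 lower (Eif2s2) in OE. Eif2s2, the beta subunit of the initiation factor eIF2, had 31197 in KO and 14307 in OE, against 17919 in WT, a ratio of 1.74 (1.71 to 1.77) in KO. Eif2b5, a subunit of its exchange factor, had 9297 in KO and 6110 in OE, against 6692 in WT. Eif4g3 had 4651 in KO and 10262 in OE, against 7541 in WT, and Tpt1, a message with a TOP start, had 17811 in KO and 35531 in OE, against 28526 in WT. The ratios of Tpt1, 0.624 (0.613 to 0.636) in KO and 1.246 (1.23 to 1.27) in OE, were opposite in side to the medians of the members. Tpt1 and Mrpl52 both lie on chromosome 14. The 3 members on that chromosome had median log2 ratios of 0.22 in KO and −0.11 in OE, but did not all lie on 1 side. Rpl15 was below WT in KO (log2 ratio −0.09), and the copy Rps3a2 was above WT in OE (0.16). Whether the chromosome has a part in these values was not tested.

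The 8 snoRNA host genes that passed had medians of 0.04 in KO and −0.00 in OE and none was past either size in KO or OE. Snhg3, at 3210 normalised counts in KO and 2714 in OE, against 2596 in WT, had the largest ratio of these, 1.24 (1.17 to 1.30) in KO. Of 20 mTOR and MYC pathway genes, none was past either size in KO, and in OE 2 were higher (Mxd4 and Myc) and 3 lower (Eif4ebp1, Larp4 and Mnt), with medians of −0.01 in KO and −0.09 in OE. Eif4ebp1, the translation repressor that mTOR inactivates, had 13471 in KO and 8173 in OE, against 11083 in WT, and Mxd4, a MYC antagonist, had 223 in KO and 482 in OE, against 258 in WT. Larp4 had 14717 in KO and 11491 in OE, against 14558 in WT, and Mnt had 4212 in KO and 3450 in OE, against 4370 in WT.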

How the data were processed

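Ribosomal RNA was depleted from the RNA of 3 E14tg2a libraries and strand-specific libraries were sequenced. The authors trimmed reads with Trim Galore, aligned them to GRCm38/mm10 with TopHat2, counted with featureCounts and normalised with DESeq2. No source used here gives the annotation release. The signal values the authors deposited are counts over a size factor for each library. In each library 100% of values were whole multiples of 1 read (tolerance 1e-06), so no length normalisation is in them, and whole reads were recovered. With 1 library a group no count test was run and no gene was called by one. Log2 ratios carry a pseudocount of 1, plain ratios none, and genes had to average 50 or more normalised counts. Size rules (25% above or 20% below WT, and 2-fold) replaced a test, with the percent of all genes past each rule beside them. Ratios and shares have exact Clopper-Pearson intervals, which cover counting error only, as PCR copies of a molecule were not marked. The limit that 0 reads allow is 3 reads, which is 3.03 (KO), 3.30 (OE) and 2.83 (WT) normalised counts.

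Positions, lengths and coding sequences came from GENCODE M21, which held all 87 identifiers. Transcript length is that of 1 coding transcript a gene, by APPRIS tag and support level. Promoters came from RefSeq (GRCm38.p6), the first listed start of each gene, and those of 24 members were not used here. Genes named were all paralogues and their partners, the 8 highest and 8 lowest ratios in each comparison, the 5 highest and lowest levels per length in WT, 6 genes for their roles, and up to 4 genes of each other list, plus members of counts of 5 or fewer; 2 genes are not reported here. The members and lists were chosen with earlier results of these data known. Alternatives were scalings, pseudocount, level minimum and member sets, and folds were tested on simulated data. Left out were 7 columns of levels, of repeat families and of lineage genes. The lineage table exchanges the KO and WT headings relative to the gene table and also holds the ratios the authors made. Software was R 4.3.3 with edgeR 4.0.16 (TMM factors only) and Python 3.11.15 with Biopython 1.88, pandas 2.3.3, numpy 2.4.6, scipy 1.17.1 and matplotlib 3.10.9.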

Additional observations from a re-analysis of the deposited data

How the results depend on the processing

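The KO median of 0.12 kept its sign under all 13 alternatives and the OE median of −0.09 under 12 of 13. In KO it was 0.11 scaled to all gene reads, 0.13 with TMM factors, 0.12 with housekeeping genes, 0.049 scaled to 640 other coding genes of up to 1000 nucleotides and 0.11 scaled to 883 other coding genes of at least 10000 normalised counts. In OE it was −0.054 scaled to all gene reads, −0.055 scaled to reads of other genes, −0.19 with housekeeping genes, −0.0027, with no direction, with the short genes and 0.011, turned round, with the abundant genes. The last of these moved the median of all genes in OE by 0.11. In OE it was −0.099 without a level minimum, −0.089 at an average of 1000 or more, −0.087 without paralogues, −0.091 with the 77 core genes, −0.089 with the row RPL24 in place of Rpl24, and −0.089 without chromosome 8. Counts at least 25% above or 20% below WT were 5 in place of 3 in KO with TMM, and in OE in place of 4 they were 8 with housekeeping genes, 2 at an average of 1000 or more and 1 without paralogues or with the core genes. At 2-fold in OE, 1 gene was lower with housekeeping genes (Rpl10l) and 1 without a level minimum (Rpl3l), in place of 0. The members' share was 2.94% (KO), 2.65% (OE) and 2.71% (WT) of all reads, and 3.53%, 3.06% and 3.22% without the 20 genes with most reads, in that order of libraries. Other counts past these size rules stayed within 1.5 times, but the split of members above and below WT did not: in KO 21 in place of 6 were below WT with the short genes, and in OE 19 in place of 8 were above WT scaled to all gene reads or to reads of other genes, 43 with the short genes and 48 (38 below, in place of 78) with the abundant genes, while 4 were above with housekeeping genes. No paired analysis was possible because each group has 1 library. The alternatives with short or abundant genes, the core genes, RPL24 and chromosome 8 were chosen after seeing the data. With 1 library a group, differences of about 0.1 log2 units cannot be set against the spread between cultures.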
